A study of Mus musculus with 43 samples.

Results

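Genes of the integrated stress response and of amino acid supply were followed in inguinal fat of mice, a white depot under the skin of the groin. The list comprised 10 genes, taken by name: the transcription factors Atf4 and Ddit3, their feedback partner Trib3, the glutathione-degrading enzyme Chac1, the enzymes Asns, Phgdh and Psat1, the transporter subunits Slc3a2 and Slc7a11, and the hormone Fgf21. Each of 5 expression tables held 22622 genes, and 9 of the 10 genes had a row; Chac1 was not analysed here. Atf4 is on chromosome 15, Ddit3 on 10, Trib3 on 2 and Asns on 6. Phgdh and Slc7a11 are on 3, Psat1 and Slc3a2 on 19 and Fgf21 on 7.

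The integrated stress response is a signalling route in which kinases that sense missing amino acids, unfolded proteins, viral RNA or mitochondrial trouble phosphorylate the initiation factor eIF2. General translation then falls while Atf4 mRNA is translated more, so that ATF4 protein can rise without more Atf4 mRNA. ATF4 induces genes that make, import and charge amino acids and, with CHOP (the product of Ddit3), genes that curb the response. In fat, mitochondrial stress and cold can both engage it, and FGF21 is one of its secreted products.

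Gene expression was measured by RNA-seq of poly(A) RNA in 43 samples of 9 groups. C57BL/6J mice aged 28 days (P28) were kept at 22 C (n = 4) or at 30 C (n = 4), and TrkA-flox Th-cre mice of the same age were kept at 22 C (n = 4). Bcl6-flox mice (n = 7) and Bcl6-flox Prx1-cre mice (n = 8), all with floxed Bcl6 alleles, were sampled at P25 and 22 C, and the same genotypes at 9 weeks and 4 C (n = 4 each). The last 2 groups were 9-week C57BL/6J mice, 4 samples at 22 C and 4 at 4 C. Th-cre drives recombination where tyrosine hydroxylase is made, as in sympathetic neurons, whose cell bodies lie outside the depot. The P28 controls carried neither the floxed TrkA allele nor the Cre, so that allele, Cre and strain background cannot be told apart there. Prx1-cre is active in mesenchyme, limb buds included, and so in more than fat cells. Values are normalized read counts; each table was scaled on its own, so levels are compared within a table only. Whether the samples of a group came from separate animals is not stated, so p-values cover the spread among these libraries, which may be technical. How long mice stayed in the cold is not given in the labels.

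ATF4 binds, with C/EBP partners, a composite element whose core can be written TGATGNAA. That core was searched on both strands in the RefSeq promoters of the build GRCm38.p6, from 250 bases before to 50 bases after each gene's start, to show which of the 9 genes carry it close to the start. It was present in 4 of their 10 promoter entries (Psat1 has 2 entries), against 3.97% of all 32851 promoters and 2.30% of the 14021 promoters of genes tested here. The 30-base windows below run 5′ to 3′ in the direction of the gene, all from the minus strand, with the matching core in capitals. A core that lies on the opposite strand appears as its reverse complement.
Asns, chr6:7693214-7693243, 23 bases before the start: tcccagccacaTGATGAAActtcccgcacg
Slc7a11, chr3:50443661-50443690, 66 bases before the start: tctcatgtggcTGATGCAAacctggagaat
Slc7a11, chr3:50443642-50443671, 47 bases before the start, opposite strand: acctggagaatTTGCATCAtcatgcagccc
Fgf21, chr7:45615611-45615640, 139 bases before the start, opposite strand: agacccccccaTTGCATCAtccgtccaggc
Trib3, chr2:152344028-152344057, 14 bases after the start, opposite strand: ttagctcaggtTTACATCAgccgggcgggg
The windows of Atf4, Ddit3, Phgdh, Psat1 and Slc3a2 held no such core. The windows of Slc3a2 (chr19:8713848-8714147, gene 8706882-8723369) and Slc7a11 (chr3:50443564-50443863, gene 50364936-50499087) lie at starts inside the gene. The outermost starts of these genes were not searched. A match describes letters only, and no match says nothing of ATF4 binding elsewhere.

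Depth, estimated from the spacing of low values, was 3503000 to 6432000 reads in the P28 tables, 4995000 to 15785000 at P25, 16868000 to 30729000 in the adult Bcl6 table and 6268000 to 8861000 in the adult C57BL/6J table. These estimates are rough, because 6.24 to 70.5% of low values of a library were whole multiples of its step within a tolerance of 0.02. Adipocyte markers were measured in every group, none of them at 0. The total of Bcl6 was higher in samples labelled Prx1-cre, by 1.78 ± 0.23 (SE) log2 units at P25 and 2.54 ± 0.17 at 9 weeks. A gene total does not show which exons were read, so it does not check the deletion. Xist, which marks female cells, was at 4324 or more in all 8 adult Bcl6 samples and in 2 to 4 samples of each P25 and adult C57BL/6J group. At P28 it was high in 2 of 4 samples at 22 C, 3 of 4 at 30 C and 1 of 4 TrkA-flox Th-cre samples. At P25 the samples with high Xist were those whose column code begins with F. In bulk tissue, fewer cells of a type and less RNA per cell cannot be told apart.

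The 9 genes did not move as a block in any of the 5 comparisons. Slc3a2 and Asns rose in the cold in adult C57BL/6J mice, Phgdh and Slc3a2 were higher with the Prx1-cre label in the cold, Psat1 was lower with that label at P25, and Trib3 was higher with TrkA-flox Th-cre. Atf4 and Ddit3 mRNA passed the test in none of the 5. The test was limma on log2(normalized count + 1), with p adjusted over all tested genes, at an adjusted p of 0.05. At P28, 30 C against 22 C, 0 of 8 tested genes passed, beside 4.45% of all tested genes called. An unadjusted p under 0.05 in limma was found there for 3 of the 8, beside 19.4% of all tested genes. Each of the other comparisons had 3 or 4 such genes of the list, beside 14.99 to 29.9% of all tested genes. With TrkA-flox Th-cre 1 of 8 passed, beside 2.66% of all genes. At P25, with the Prx1-cre label, 1 of 8 passed, beside 3.53%. At 9 weeks and 4 C, with that label, 2 of 9 passed, beside 14.5%, so that count stands close to the share of all genes. In adult C57BL/6J mice, 4 C against 22 C, 2 of 8 passed, beside 4.47%. Over the tested genes of the list, the median log2 fold change was 0.05, 0.12, -0.08, -0.08 and 0.34 in these comparisons, in the same order, and over all tested genes 0.01, -0.01, 0.00, -0.02 and 0.02. Fgf21 was too low to be tested in all but the adult Bcl6 table. The 2 comparisons at P28 share their 4 control libraries at 22 C.

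**Figure D1:**
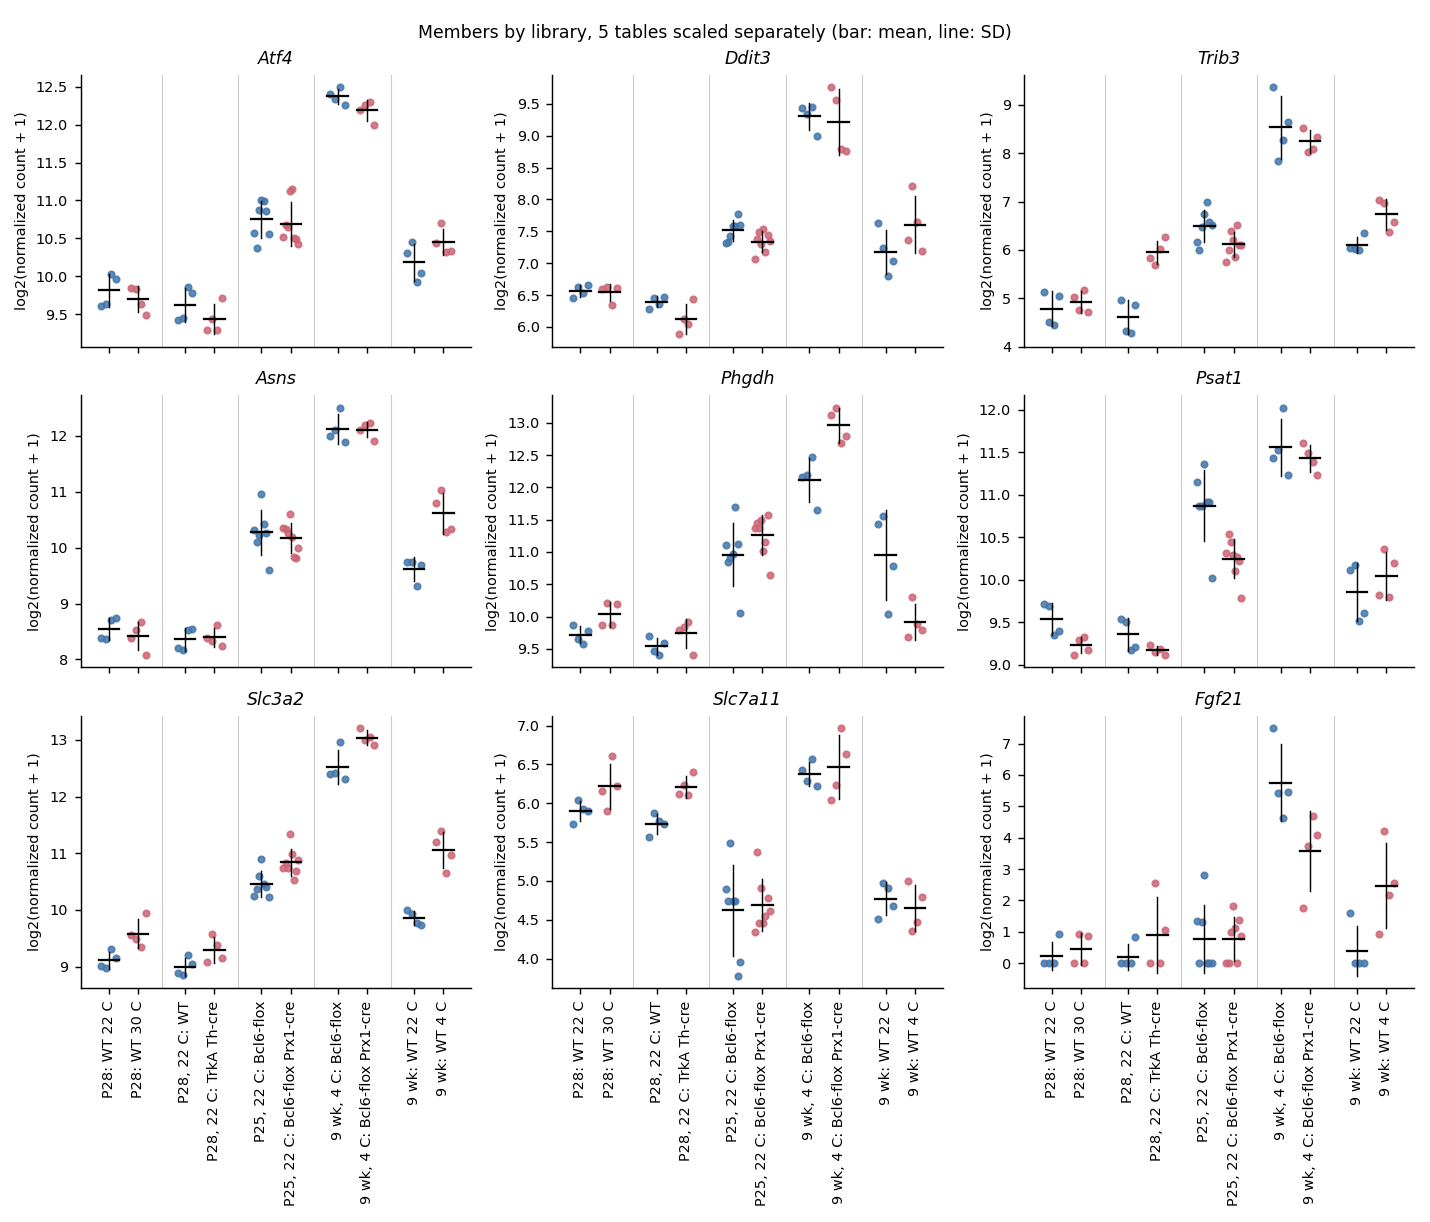
Normalized counts of the 9 genes in every library, as log2(normalized count + 1), by group; points are libraries, bars are means and lines are SD. Vertical lines separate the 5 tables, which were scaled separately. Slc3a2 and Asns lie higher in all 4 adult samples at 4 C than in all 4 at 22 C, and Trib3 lies higher in all 4 TrkA-flox Th-cre samples than in all 4 controls.

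Atf4, the transcription factor at the centre of the response, passed the test in no comparison. In adult C57BL/6J mice it was 1268, 1403, 973 and 1053 at 22 C and 1387, 1659, 1278 and 1290.3 at 4 C, so that the groups overlapped. The log2 difference was 0.26 ± 0.14 (SE; adjusted p = 0.305), with a 95% interval of -0.06 to 0.59. At 9 weeks and 4 C it was 5323 ± 373 (SD, n = 4) in Bcl6-flox and 4683 ± 419 (SD, n = 4) with the Prx1-cre label, a difference of -0.19 ± 0.08 (adjusted p = 0.179). In the other comparisons the difference lay between -0.19 and -0.06, with every 95% interval including 0. Counts of mRNA do not measure ATF4 protein.

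Ddit3 encodes CHOP, a transcription factor that accompanies prolonged stress. It passed in no comparison, and its highest change was 0.42 ± 0.26 (adjusted p = 0.353) in the cold. There, 147 ± 37.0 (SD, n = 4) at 22 C stood against 201 ± 67.1 (SD, n = 4) at 4 C, and 1 cold sample at 295 was the highest of the 8. With TrkA-flox Th-cre it was 69.4 ± 11.7 against 83.1 ± 4.99 (SD, n = 4 each), a difference of -0.27 ± 0.15 (adjusted p = 0.355).

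Trib3 encodes a pseudokinase that is induced by ATF4 and CHOP and restrains them. At P28 and 22 C it was 30.2, 19.0, 18.5 and 28.2 in C57BL/6J mice and 56.3, 50.9, 63.5 and 75.7 in TrkA-flox Th-cre mice. Every sample of the second group was above every sample of the first. The fold change was 2.54 (log2 1.34 ± 0.23, adjusted p = 0.0171), the largest of the list in that comparison, while Atf4 and Ddit3 did not pass. The call was lost without control sample 2 (adjusted p = 0.0551) or without TrkA-flox Th-cre sample 1 (0.0545) or 3 (0.0537). Markers of other cell types moved with the same groups. The summed skeletal muscle markers were 280 to 859 in controls and 1182 to 6392 in TrkA-flox Th-cre samples, with 2 of 8 tested markers up. The summed macrophage markers were 4077 to 5514 and 7108 to 8789, with 4 of 10 up. The summed beige and brown adipocyte markers were 2118 to 3865 and 1145 to 2182, with 3 of 5 down, and the Schwann cell markers 3503 to 5669.9 and 2462 to 3510.1, with 1 of 7 down. With the muscle score (the markers' mean log2 value) as a covariate the difference of Trib3 was 1.17 (adjusted p = 0.565), and 3 of all tested genes were called. That score was 4.33 to 5.31 in controls and 6.32 to 8.38 in TrkA-flox Th-cre samples. Because these ranges do not overlap, the fit cannot tell muscle content and genotype apart. The part of these cells in the Trib3 result was not tested further.

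Trib3 showed smaller differences elsewhere. At 9 weeks in C57BL/6J mice it was 65.0, 63.7, 62.9 and 80.6 at 22 C and 129, 125, 81.3 and 94.6 at 4 C. The groups did not overlap, though by a narrow margin, and the difference of 0.63 ± 0.19 did not pass (adjusted p = 0.0924). It passed in 2 of 19 alternative fits (lowest adjusted p = 0.0424). At P25 it was 63.0 to 127 (median 90.0) in Bcl6-flox and 53.0 to 90.8 (median 67.5) with the Prx1-cre label, a difference of -0.38 ± 0.16 (adjusted p = 0.248). Between 30 C and 22 C at P28 the difference was 0.13 ± 0.23, and in the adult Bcl6 table -0.29 ± 0.29.

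**Figure D2:**
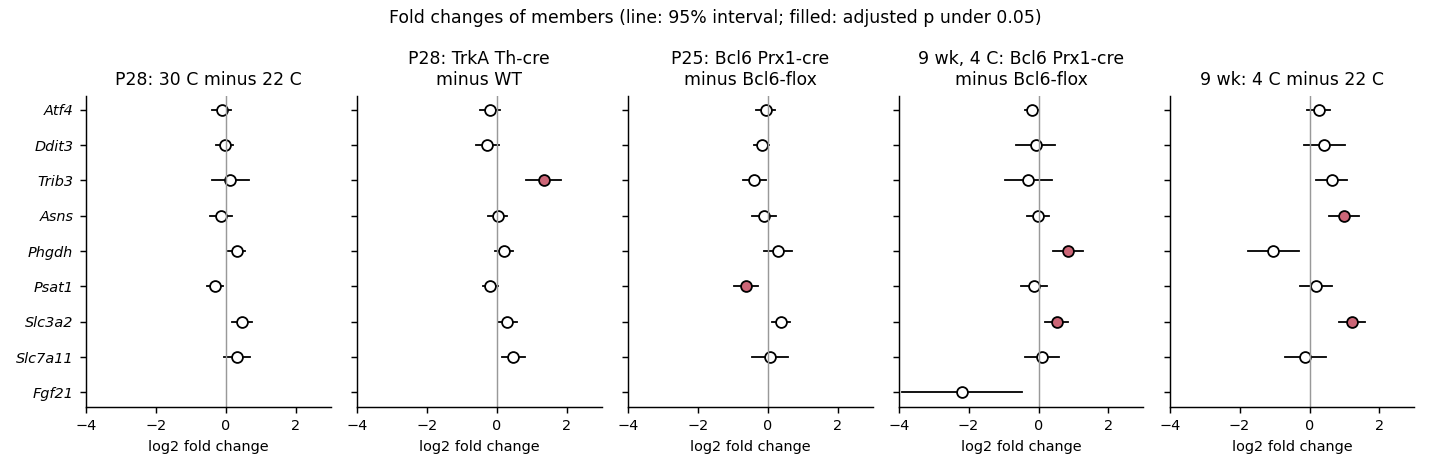
Log2 fold changes with 95% intervals in the 5 comparisons; filled points passed an adjusted p of 0.05 in limma. Fgf21 is drawn only where it was tested. The 6 filled points are Trib3 in the TrkA comparison, Psat1 at P25, Phgdh and Slc3a2 in the adult Bcl6 comparison, and Slc3a2 and Asns in the adult temperature comparison.

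Asns encodes asparagine synthetase, which makes asparagine from aspartate and glutamine and is a standard readout of the amino acid response. Its promoter window above carries the core on the gene's own strand. At 9 weeks it was, in C57BL/6J mice, 853, 852, 633 and 828 at 22 C and 1788, 2088, 1237 and 1296 at 4 C. All cold samples were above all samples at 22 C. This held in the samples with low Xist (1 and 2) as in those with high Xist (3 and 4). The main fit took no account of Xist. The fold change was 1.99 (log2 0.99 ± 0.19, adjusted p = 0.0332). Leaving out 1 library ended this call in 7 of 8 cases: adjusted p was 0.0852, 0.0708, 0.0544 and 0.0719 without samples 1 to 4 at 22 C, and 0.115, 0.0610 and 0.0515 without cold samples 1, 2 and 4. The difference stayed between 0.85 and 1.11 in all 8. Over all 19 alternatives, which include a covariate for Xist, the call was lost in 7, with adjusted p from 0.00339 to 0.115. In the same adult groups the summed beige and brown markers were 1092 to 3777 at 22 C and 13354 to 59988 at 4 C, with 3 of 6 up. Schwann cell markers were 5996 to 7202 and 2957 to 3507, with 4 of 7 down. The part of these markers in the rise of Asns was not tested. Asns differed little in the other tables: -0.13 ± 0.14 for 30 C against 22 C, 0.03 ± 0.12 with TrkA-flox Th-cre, and -0.10 ± 0.16 and -0.02 ± 0.13 with the Prx1-cre label at P25 and 9 weeks.

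Phgdh encodes phosphoglycerate dehydrogenase, the first enzyme of serine synthesis from glucose. At 9 weeks and 4 C it was 4570.4, 4688, 5669 and 3226 in Bcl6-flox and 8948, 9649, 6559 and 7073 with the Prx1-cre label. The groups did not overlap. The fold change was 1.79 (log2 0.84 ± 0.19, adjusted p = 0.0202). The call was lost without Bcl6-flox sample 1 or 2 (adjusted p = 0.0548 and 0.0506) and without Prx1-cre sample 1 or 2 (0.0634 and 0.0565). In the same groups the summed beige and brown adipocyte markers fell from 77776 to 122651 in Bcl6-flox to 10233 to 38331 with the Prx1-cre label, with 6 of 6 markers down. Macrophage markers rose from 11156 to 15120 to 19206 to 32499, with 8 of 10 up. Skeletal muscle markers were 2689 to 576230 and 227 to 5045, with none called; adding the muscle score (their mean log2 value) to the fit gave a Phgdh difference of 1.15 (adjusted p = 0.00370). The part of the other markers in the Phgdh result was not tested.

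The mean of Phgdh was lower, not higher, in the cold in adult C57BL/6J mice. It was 2759.6, 3008, 1047 and 1764 at 22 C and 825, 1267, 941 and 881 at 4 C. Only sample 3 at 22 C lay within the range of the cold samples. The difference of -1.04 ± 0.32 did not pass (adjusted p = 0.0979). Samples 3 and 4 of each temperature had high Xist. Among samples with low Xist, Phgdh was 2759.6 and 3008 at 22 C against 825 and 1267 at 4 C, and among those with high Xist 1047 and 1764 against 941 and 881. With a covariate for Xist the same difference passed (adjusted p = 0.0231), and without sample 3 at 22 C it was -1.34 (adjusted p = 0.0289). It also passed with a block for the sample number (below), and in 6 of 19 alternatives in all. At P28 Phgdh was 845 ± 76.9 at 22 C and 1055 ± 142 at 30 C (SD, n = 4 each), a difference of 0.31 ± 0.11 (adjusted p = 0.137). With TrkA-flox Th-cre and with the Prx1-cre label at P25 it was 0.20 ± 0.12 and 0.30 ± 0.19, neither past the test.

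Psat1 encodes phosphoserine aminotransferase, the next enzyme of the serine pathway after Phgdh. At P25 it ranged from 1042 to 2633 in Bcl6-flox (median 1923, n = 7) and from 883 to 1492 with the Prx1-cre label (median 1239, n = 8). Of the Bcl6-flox samples, 6 of 7 were above all 8 Prx1-cre samples, and sample F4 was the exception at 1042. The level was 0.65 of that in Bcl6-flox (log2 -0.63 ± 0.16, adjusted p = 0.0388). In the same groups the summed beige and brown markers were 7063 to 19838 in Bcl6-flox and 1668 to 4056 with the label, with 5 of 6 down, and their part in the Psat1 result was not tested. Among samples coded M it was 1860.3 to 2633 in Bcl6-flox against 1248 to 1492, with no overlap, and among those coded F 1042 to 1931 against 883 to 1229, with overlap. The call was lost in 13 of 15 cases when 1 sample was left out, with adjusted p between 0.0518 and 0.0881. It held without Bcl6-flox sample F4 (-0.77, adjusted p = 0.000989) and without Prx1-cre sample M2 (adjusted p = 0.0388).

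Psat1 and Phgdh, neighbours in the same pathway, were not called in the same comparison, and their changes were not tested against each other. At P25 Psat1 fell while Phgdh had a difference of 0.30 ± 0.19 (adjusted p = 0.519). At 9 weeks and 4 C Phgdh rose while Psat1 had -0.13 ± 0.16 (adjusted p = 0.631). Adult C57BL/6J samples had Psat1 at 1106, 1157, 732 and 781 at 22 C and 903, 1318, 887 and 1177 at 4 C, overlapping, with a difference of 0.19 ± 0.20. At P28 Psat1 was 842, 827, 651 and 675 at 22 C and 556, 628, 639.8 and 579 at 30 C. The ranges did not overlap, yet the difference of -0.31 ± 0.10 did not pass (adjusted p = 0.119).

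Slc3a2 encodes CD98 heavy chain, the subunit that carries several amino acid transporters to the cell surface. In C57BL/6J mice at 9 weeks it was 1017, 971, 869.5 and 848 at 22 C and 2354, 2700.1, 1598 and 2013 at 4 C. All cold samples were above all others, in the samples with low Xist (1 and 2) as in those with high Xist (3 and 4). The fold change was 2.30 (log2 1.20 ± 0.16, adjusted p = 0.0130), and the call was lost only without cold sample 1 (1.15, adjusted p = 0.0595). In those groups the summed beige and brown markers were 1092 to 3777 at 22 C and 13354 to 59988 at 4 C, with 3 of 6 up, and Schwann cell markers 5996 to 7202 and 2957 to 3507, with 4 of 7 down. Their part in the rise of Slc3a2 was not tested.

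At P28 the warmer group had the higher mean of Slc3a2. It was 513, 503, 629.8 and 569 at 22 C and 749.6, 714, 647 and 979.7 at 30 C, again without overlap. The difference of 0.47 ± 0.13 did not pass (adjusted p = 0.0804). With the muscle score as a covariate it was 0.19 (adjusted p = 0.598). Macrophage markers summed to 4599.6 to 6275 at 22 C and 6718 to 8289.6 at 30 C, with 2 of 10 up.

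The response of Slc3a2 to a cooler room thus differed between the ages. Written as the cooler minus the warmer group, the effect was 1.20 at 9 weeks (22 C to 4 C) and -0.47 at P28 (30 C to 22 C), a difference of 1.67 ± 0.21 (SE; adjusted p = 0.000524, from a test of the difference between the limma effects). It was the only gene of the 8 tested that passed, beside 3.33% of all tested genes. The difference stayed between 1.55 and 1.81, past the threshold, without each of the 16 libraries in turn. It was 1.69 with a covariate for Xist and 1.41 with the muscle score (adjusted p = 6.57e-05 and 0.00123). Temperature step, age and table differ together between these effects and cannot be told apart. For Asns the difference was 0.86 ± 0.24 (adjusted p = 0.0563) and for Trib3 0.77 ± 0.30 (adjusted p = 0.185).

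**Figure D3:**
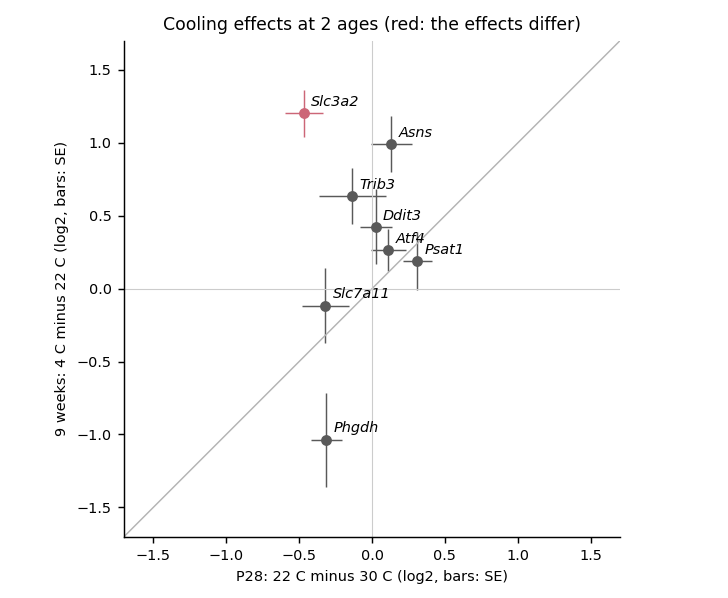
Cooling effects (log2, with SE) of the 8 tested genes at P28 (22 C minus 30 C, horizontal) and at 9 weeks (4 C minus 22 C, vertical); the diagonal marks equal effects. Slc3a2, in red, is the gene whose 2 effects differed, at -0.47 and 1.20.

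Slc3a2 was higher with the Prx1-cre label at 9 weeks, and did not pass at P25. At 9 weeks and 4 C it was 5419.7, 5450.3, 7958 and 5078 in Bcl6-flox and 9456, 8139, 8500.0 and 7692 with the label. Bcl6-flox sample 3 lay inside the range of the other group. The fold change was 1.43 (log2 0.52 ± 0.14, adjusted p = 0.0445). The call held without Bcl6-flox sample 3 (0.66, adjusted p = 0.0014) and was lost without any of the other 7 samples, with adjusted p from 0.0663 to 0.121. In these 9-week groups 6 of 6 beige and brown markers were down and 8 of 10 macrophage markers up with the label. Their part in the Slc3a2 result was not tested. At P25 the range was 1201 to 1918 (median 1355) in Bcl6-flox and 1471 to 2582 (median 1767) with the label. That difference of 0.38 ± 0.12 did not pass (adjusted p = 0.0979), though it did without Bcl6-flox sample M4 (0.46, adjusted p = 0.0315). The 2 effects differed by 0.14 ± 0.19 (adjusted p = 0.882, 95% interval -0.25 to 0.53). For the list as a whole, 0 genes had Bcl6 effects that differed between the ages, beside 0.304% of all genes; Psat1 alone had an unadjusted p under 0.05 (0.0387). With TrkA-flox Th-cre the difference of Slc3a2 was 0.30 ± 0.12 (adjusted p = 0.227).

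Slc7a11 encodes xCT, the light chain that pairs with CD98 heavy chain to import cystine for glutathione synthesis. Its promoter window holds the core on each strand, less than 30 bases apart. It passed in no comparison. With TrkA-flox Th-cre it was 46.4, 57.6, 53.4 and 52.2 in controls and 68.3, 74.2, 67.8 and 83.7 with the Cre, without overlap, a difference of 0.48 ± 0.14 (adjusted p = 0.108). At 30 C against 22 C it was 0.32 ± 0.16 (adjusted p = 0.333). In the adult cold, where Slc3a2 rose, the difference of Slc7a11 was -0.12 ± 0.26, with a 95% interval of -0.71 to 0.47, from 26.5 ± 4.01 at 22 C to 24.6 ± 5.26 at 4 C (SD, n = 4 each).

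Other light chains of CD98 heavy chain were measured beside it. Slc7a6, which exchanges cationic and neutral amino acids, rose in the cold from 281 ± 27.8 to 538 ± 144 (0.90 ± 0.19, adjusted p = 0.0390), a call lost in 7 of 19 alternative ways of processing or leaving out a library. With the Prx1-cre label it was higher at P25 (0.41 ± 0.11, adjusted p = 0.0449), with overlapping groups and the call lost in 16 of 25 alternatives (adjusted p up to 0.0884), and at 9 weeks (0.65 ± 0.16, adjusted p = 0.0307). Slc7a10, an alanine, serine and cysteine carrier of fat cells, was 11017 ± 3531 in Bcl6-flox and 21032 ± 1602 with the label at 9 weeks (0.98 ± 0.21, adjusted p = 0.0162). Beige and brown markers fell and macrophage markers rose in those 9-week groups (above). In the adult cold beige and brown markers rose and Schwann cell markers fell (above). The part of these markers in the results of Slc7a6 and Slc7a10 was not tested. Slc7a8, a carrier of neutral amino acids, was 125 ± 19.3 at 22 C and 231 ± 80.3 at 4 C in adults, which did not pass (0.84 ± 0.24, adjusted p = 0.0845). Slc7a5, the leucine carrier, passed in no comparison and ranged from -0.54 ± 0.34 to 0.64 ± 0.39, and Slc7a7 did not pass either.

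Fgf21, an endocrine hormone with metabolic actions, was close to the detection limit in most samples. At P28 it was at 0 in 3 of 4 samples at 22 C and 2 of 4 at 30 C, with 0 or an estimated 1 read in each, and with TrkA-flox Th-cre it reached 4.85. At P25 it was 0 to 6.00 in Bcl6-flox and 0 to 2.50 with the Prx1-cre label. In C57BL/6J mice at 9 weeks it was 2.00, 0, 0 and 0 at 22 C and 0.925, 17.7, 3.54 and 4.87 at 4 C. The groups overlapped, the highest sample rests on an estimated 14.1 reads, and no test was made. At 9 weeks and 4 C it was 179, 42.0, 23.7 and 43.0 in Bcl6-flox and 2.39, 12.4, 24.9 and 16.0 with the Prx1-cre label. Bcl6-flox sample 1 was far above the rest, and sample 3 was below the highest sample of the other group. The difference of -2.18 ± 0.75 did not pass (adjusted p = 0.0906). It passed without Bcl6-flox sample 3 (-2.56, adjusted p = 0.0372), and was -1.60 without sample 1 (adjusted p = 0.197).

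The receptor side of FGF21 was better covered. Klb encodes beta-klotho, the co-receptor that lets FGFR1 bind FGF21. At 9 weeks Klb was, in C57BL/6J mice, 229.9, 225, 173 and 240.02 at 22 C and 991, 1228, 521 and 690.2 at 4 C. The groups did not overlap (log2 1.91 ± 0.26, adjusted p = 0.0130), and the call was lost only without cold sample 1 (1.82, adjusted p = 0.0595). Beige and brown markers rose and Schwann cell markers fell in those adult cold samples (above), and their part in the rise of Klb was not tested. In the adult Bcl6 comparison Klb was 1596, 1750.0, 2013 and 1552 against 4174, 3899, 3507 and 2785 (1.05 ± 0.14, adjusted p = 0.00259). There Klb was higher while the beige and brown markers were lower. At P25 the difference was 0.74 ± 0.21 (adjusted p = 0.0595). The cooling effects of Klb, 1.91 at 9 weeks and 0.40 at P28, differed by 1.52 ± 0.29 (adjusted p = 0.0152), a call lost without adult cold sample 1 (1.42, adjusted p = 0.0606). Fgfr1 passed in no comparison, with differences from -0.22 ± 0.23 to 0.42 ± 0.12.

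Other genes of the response were counted in 11 lists. The counts stand beside the shares of all tested genes called: 4.45% for 30 C against 22 C, 2.66% with TrkA-flox Th-cre, 3.53% at P25, 14.5% in the adult Bcl6 comparison and 4.47% in the adult cold. For the genes named, the number of alternatives that ended a call is given, out of 19 in the P28 and adult temperature comparisons, 25 at P25 and 18 in the adult Bcl6 comparison; these include leaving out each library in turn. The part of the beige, brown and macrophage markers in the calls of these lists was not tested. Of 14 or 15 tested other targets of Atf4, 2 rose at 30 C, 0 changed with TrkA-flox Th-cre, 0 changed at P25, 1 rose and 3 fell with the Prx1-cre label at 9 weeks, and 3 rose in the adult cold. The risen genes in the cold were Cth, which makes cysteine from cystathionine (61.7 ± 19.95 to 232 ± 72.3, 1.90 ± 0.30, adjusted p = 0.0234), the transcription factor Atf5 (0.96 ± 0.22, adjusted p = 0.0490) and Ppp1r15a, the GADD34 subunit that reverses eIF2 phosphorylation (0.76 ± 0.15, adjusted p = 0.0354). At 30 C they were Ddit4, an inhibitor of mTORC1 (281 ± 44.5 to 585 ± 72.9, 1.06 ± 0.13, adjusted p = 0.00395), and Jdp2 (0.58 ± 0.13, adjusted p = 0.0414). At 9 weeks, with the Prx1-cre label, Vldlr (-1.43 ± 0.22), Cth (-0.97 ± 0.17) and Cebpb (-0.78 ± 0.21) fell, with adjusted p of 0.00491, 0.00712 and 0.0389. In the cold the call was lost in 3 alternatives for Cth, 9 for Atf5 and 7 for Ppp1r15a. At 30 C it was lost in 1 for Ddit4 and in 13 of 19 for Jdp2, with adjusted p up to 0.314. In the adult Bcl6 comparison it was lost in 7 for Cebpb and in 0 for Vldlr and Cth. The list's median in the adult cold was 0.12, against 0.02 for all genes, and -0.19 in the adult Bcl6 comparison, against -0.02.

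Of 15 kinases, phosphatase subunits and eIF2B subunits that set the response, 0 passed at P28 in either comparison, and the 1 that passed in the adult cold was Ppp1r15a. Ppp1r15b, the constitutive partner of the eIF2 phosphatase, fell with the Prx1-cre label at P25 (-0.35 ± 0.08, adjusted p = 0.0318) and at 9 weeks (-0.56 ± 0.11, adjusted p = 0.0115). Eif2ak3, the kinase PERK, rose there at 9 weeks (0.38 ± 0.10, adjusted p = 0.0409). Of 20 aminoacyl-tRNA synthetases, which charge amino acids onto tRNA and include ATF4 targets, 0 passed in the adult cold, where their median was 0.23. Over all tested genes the median there was 0.02, and 0 calls do not show that the synthetases were unchanged. At 30 C Aars and Gars fell (-0.43 ± 0.08 and -0.33 ± 0.07, adjusted p = 0.0161 and 0.0399) and Vars rose (0.27 ± 0.06, adjusted p = 0.0446). At 9 weeks Gars, Farsb and Farsa fell with the Prx1-cre label, by 0.54, 0.39 and 0.24 on the log2 scale (adjusted p = 0.00975, 0.0134 and 0.0436). The P25 groups overlapped for Ppp1r15b, whose call was lost in 11 of 25 alternatives there and in 1 at 9 weeks, and Eif2ak3 lost its call in 6. At 30 C the call was lost in 3 for Aars, 10 of 19 for Gars and 11 of 19 for Vars, and at 9 weeks in 0 for Gars and Farsb and 11 of 18 for Farsa.

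Around serine and glycine, 16 further enzymes were tested. In the adult cold 2 rose: Cbs, which joins serine and homocysteine on the way to cysteine (91.3 ± 33.8 to 443 ± 172, 2.26 ± 0.37, adjusted p = 0.0242), and the cytosolic serine hydroxymethyltransferase Shmt1 (0.96 ± 0.22, adjusted p = 0.0478). At 30 C Gcsh of the glycine cleavage system fell from 448 ± 18.5 to 290.2 ± 13.6 (-0.63 ± 0.06, adjusted p = 0.00211). In the adult Bcl6 comparison the mitochondrial folate enzyme Aldh1l2 rose (0.85 ± 0.22, adjusted p = 0.0350). The call was lost in 4 alternatives for Cbs, 9 for Shmt1, 0 for Gcsh and 8 for Aldh1l2. Cth and Cbs, consecutive steps from homocysteine to cysteine, therefore both rose in the cold, in the comparison where the cystine carrier Slc7a11 had a difference of -0.12 ± 0.26.

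Of 20 tested genes of other amino acid synthesis and breakdown, 4 rose and 0 fell in the adult cold. Besides Cth and Cbs, Glud1, which links glutamate to the citric acid cycle, rose from 2575 ± 251 to 7705 ± 2185 (1.54 ± 0.21, adjusted p = 0.0133). At 9 weeks 3 rose and 3 fell with the Prx1-cre label. The mitochondrial aspartate aminotransferase Got2 rose there (0.92 ± 0.17, adjusted p = 0.00861) and at P25 (0.77 ± 0.10, adjusted p = 0.000360). The proline and hydroxyproline enzyme Aldh4a1 fell at P25 from 2142 ± 207 to 1323 ± 87.6 (-0.69 ± 0.07, adjusted p = 1.25e-05). With TrkA-flox Th-cre the histidine enzyme Hal was 0.699 ± 0.479 in controls and 272 ± 163 with the Cre (SD, n = 4 each). It was tested only because of the second group, and its log2 difference ran from 5.46 to 7.80 over the alternatives, so no fold is given. The alanine aminotransferase Gpt fell there (-0.76 ± 0.13, adjusted p = 0.0164), a call lost in 5 alternatives. Those of Glud1, Got2 and Aldh4a1 were lost in 0.

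Of 22 to 24 tested other amino acid transporters, 2 rose in the adult cold: Slc7a6 (above) and the glutamine carrier Slc38a2 (835 ± 158 to 1508 ± 107, 0.87 ± 0.14, adjusted p = 0.0242). Slc38a2 fell with the Prx1-cre label at 9 weeks (-0.43 ± 0.06, adjusted p = 0.00280). The proton-coupled carrier Slc36a2 fell with that label at P25 (-0.73 ± 0.13, adjusted p = 0.00477) and at 9 weeks (-0.82 ± 0.13, adjusted p = 0.00524). At 30 C the arginine carrier Slc7a2 rose from 45.9 ± 5.19 to 102 ± 14.5 (1.13 ± 0.14, adjusted p = 0.00499). The call of Slc38a2 was lost in 6 alternatives in the cold and in 0 with the label, and those of Slc36a2 and Slc7a2 in 0.

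**Figure D4:**
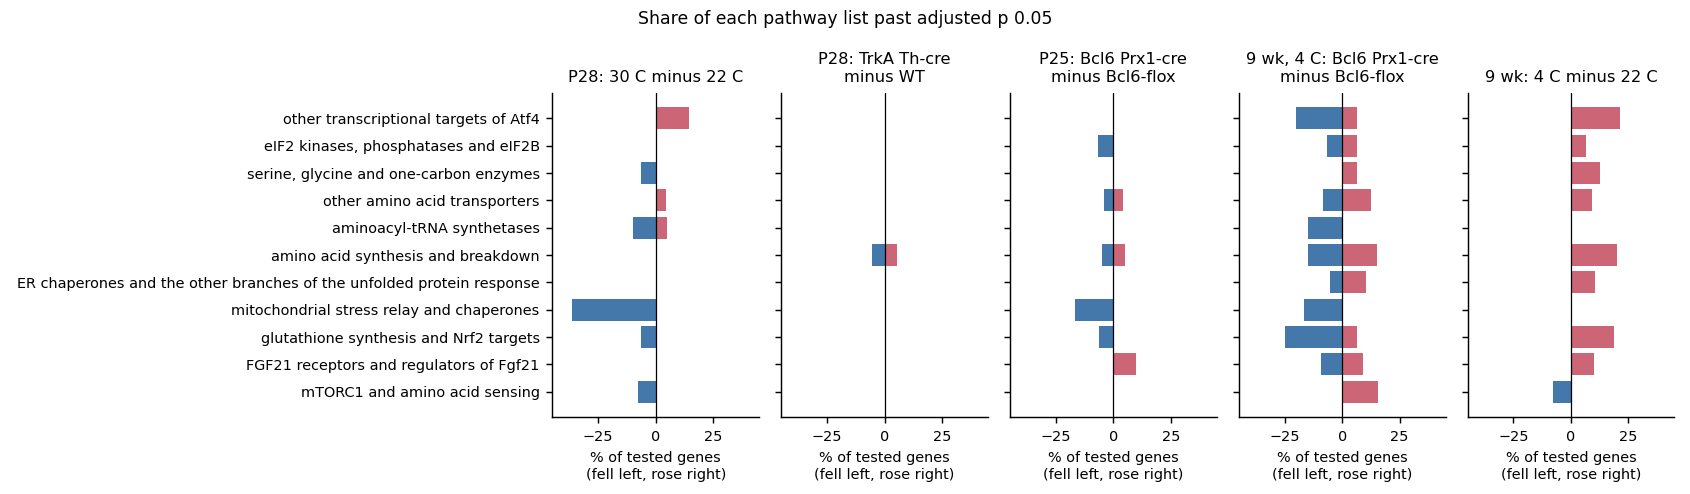
Share of the tested genes of each of 11 lists that passed an adjusted p of 0.05 in limma, with falls to the left and rises to the right, in the 5 comparisons. In the adult cold 3 of 14 other Atf4 targets rose, and Castor1 is the only gene of these lists that fell. At 30 C the longest bar is the fall of 4 of 11 genes of mitochondrial stress relay and chaperones.

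Stress outside the cytosol gave a mixed picture. Of 11 tested genes of the mitochondrial stress relay and chaperones, 4 fell at 30 C, among them the chaperonin Hspd1 (2570 ± 135 to 1975 ± 79.4, -0.38 ± 0.06, adjusted p = 0.0120), the protease Afg3l2 and the chaperone Trap1. The summed beige and brown markers moved with them, from 2389.5 to 4383 at 22 C to 682 to 1369 at 30 C, with 4 of 5 down, and their part in these falls was not tested. The median of this mitochondrial list was -0.31 at 30 C and 0.49 in the adult cold, where 0 of 11 passed. Over all tested genes the median in the cold was 0.02. The fit there took no account of Xist, so 0 calls do not show that these genes were unchanged. At P25 2 of 12 fell with the Prx1-cre label (Clpx and Trap1), and at 9 weeks 2 of 12 (Clpx and Hspd1). Of 19 ER chaperones and genes of the other branches of the unfolded protein response, 0 changed in the 3 younger comparisons. In the cold Atf6, an ER stress sensor, rose (0.62 ± 0.10, adjusted p = 0.0242), as did the ER co-chaperone Dnajb9 (0.98 ± 0.17, adjusted p = 0.0254), while the list's median was -0.10. In the adult Bcl6 comparison Dnajb9 fell (-0.58 ± 0.14, adjusted p = 0.0286) and Edem1 and Sel1l rose. The P25 groups overlapped for Clpx and Trap1, whose calls were lost in 11 and 14 of 25 alternatives. At 30 C the call was lost in 2 for Hspd1, 2 for Afg3l2 and 8 for Trap1, and at 9 weeks with the label in 2 for Clpx, 8 for Hspd1, 5 for Dnajb9, 0 for Edem1 and 6 for Sel1l. In the cold it was lost in 4 for Atf6 and 5 for Dnajb9.

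Of 16 genes of glutathione synthesis and Nrf2 targets, 3 rose in the cold: Osgin1 (2.10 ± 0.31, adjusted p = 0.0196), the sulfiredoxin Srxn1 (1.11 ± 0.20, adjusted p = 0.0283) and glutathione reductase Gsr (0.70 ± 0.15, adjusted p = 0.0436). At 9 weeks 4 fell with the Prx1-cre label, including the glutathione synthesis genes Gss (-0.38 ± 0.06) and Gclm (-0.30 ± 0.07), with adjusted p of 0.00685 and 0.0267, while haem oxygenase Hmox1 rose (0.58 ± 0.12, adjusted p = 0.0158). Of 13 genes of mTORC1 and amino acid sensing, Deptor, an mTOR inhibitor, fell at 30 C (-0.76 ± 0.13, adjusted p = 0.0158). The arginine sensor Castor1 fell in the adult cold (-1.21 ± 0.24, adjusted p = 0.0361) and rose with the Prx1-cre label at 9 weeks (0.50 ± 0.12, adjusted p = 0.0230), as did Sesn1 (0.79 ± 0.14, adjusted p = 0.00846). Of 10 or 11 FGF21 receptors and regulators, Klb rose in the cold (above), Ppara, a factor that induces Fgf21 in liver, fell with the Prx1-cre label at 9 weeks (-1.28 ± 0.29, adjusted p = 0.0210), and Ppargc1a passed with it at P25 (0.56 ± 0.14, adjusted p = 0.0422), with overlapping groups. The call of Ppargc1a was lost in 14 of 25 alternatives, with adjusted p up to 0.0948, and that of Ppara in 2. Osgin1, Srxn1 and Gsr lost theirs in 3, 5 and 10 of 19, Gclm and Hmox1 in 7 and 3 of 18, and Gss in 0. Deptor lost its call in 3, Sesn1 in 0, and Castor1 in 8 in the cold and 7 with the label.

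The 15 P25 samples allowed the genes to be set against each other, after each genotype's mean was removed. Of 28 pairs among 8 genes, 2 passed by Pearson's r, with p from 100000 permutations within genotype and adjusted over the pairs. Atf4 and Slc3a2 had r = 0.76 (adjusted permutation p = 0.0216) and rho = 0.69 (adjusted permutation p = 0.0910). Leaving out the 2 samples farthest from the median of Atf4 gave r = 0.66. Asns and Slc3a2 had r = 0.76 (adjusted permutation p = 0.0216), rho = 0.56 (adjusted permutation p = 0.237) and r = 0.65 without the 2 farthest samples. Asns and Psat1 had r = 0.75 (adjusted permutation p = 0.0736) and rho = 0.81 (adjusted permutation p = 0.0274), the only pair past the threshold by rho. Without Bcl6-flox samples F4 and M4 the r of this pair dropped to 0.38, and its rho was not computed without them. The serine enzymes Phgdh and Psat1 had r = 0.73 (adjusted permutation p = 0.0736), which dropped to 0.12 without sample F4 of each genotype. Atf4 and Ddit3 had r = 0.45 and Atf4 and Trib3 0.32, neither past the test. Without centring, 0 pairs passed. The samples share depth, Xist and marker content, whose part in these values was not tested.

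**Figure D5:**
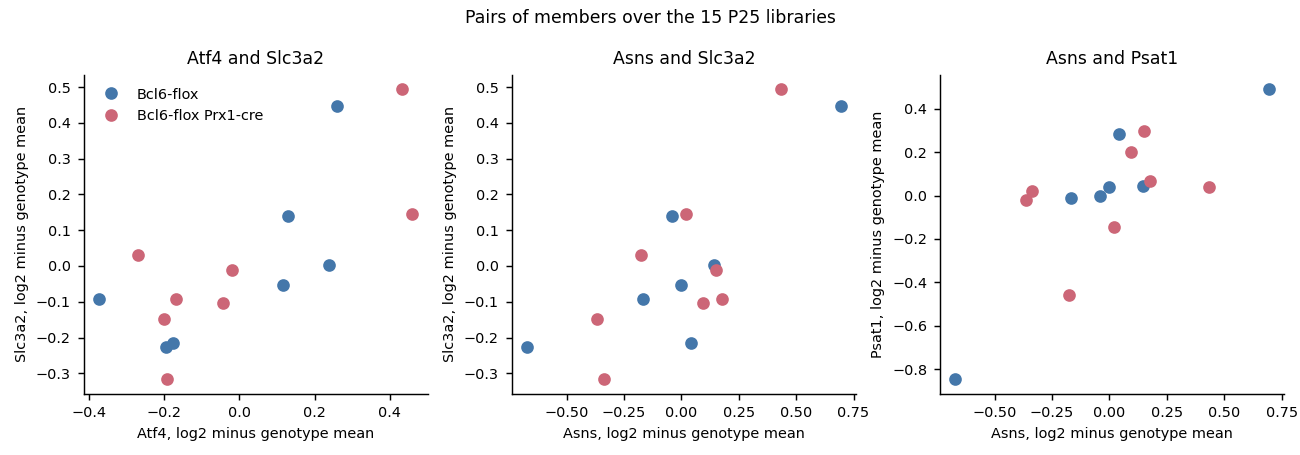
Atf4 against Slc3a2, Asns against Slc3a2 and Asns against Psat1 over the 15 P25 libraries, as log2(normalized count + 1) minus the mean of the genotype. In the right panel the lowest and the highest value of Asns belong to 2 Bcl6-flox libraries, without which r is 0.38.

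As a description, the tested genes whose centred values over the 15 P25 samples were most like Atf4 were B3gat3 (r = 0.91), Triap1 (0.90), Slc7a6os (0.90), Ankrd54 (0.90) and Rbpms (0.88). The most like Asns were Mtres1 (0.96), Rcc1l (0.95), Cuta (0.95), 2210016F16Rik (0.95) and Gcdh (0.94). None of the other 8 genes of the list was among them.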

How the data were processed

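RNA-seq of inguinal white adipose tissue gave 5 deposited tables of normalized counts per gene, a signal that the authors scaled between the libraries of each table. kallisto, DESeq2 and the build mm10 are named, per the submitters' processing notes. Versions and settings of these tools were not stated there. The libraries were stranded mRNA libraries, per the labels. Values are not whole numbers, so no count model was used. The same 4 P28 control libraries stand in both P28 tables, so those comparisons share controls. Every column was matched to a group and 0 columns were left out; P25 libraries are named by their column codes (a letter and a digit), which no sample title holds.

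Gene identifiers were given symbols from a RefSeq table of GRCm38.p6, in which 21 of 22622 had none. The test was limma 3.58.1 (R 4.3.3, trended prior) on log2(value + 1), restricted to genes at 10 or more in n libraries, n being the size of the smaller group. Adjustment (Benjamini-Hochberg) ran over every tested gene, and 0.05 was the threshold. On this scale the change of low genes is understated. Intervals are 95%. To compare effects between tables, a t test used limma's standard errors, adjusted over the genes tested in both. The muscle score is the mean log2 value of the skeletal muscle markers. The code was tested on simulated data.

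Named genes were the 10 of the list, up to 3 per pathway list and comparison with the smallest p past the threshold, Klb, Fgfr1, the label checks, and the 5 genes most like Atf4 and Asns. The members and lists were chosen with earlier results of these data known. Atf3, Sesn2, Adm2 and some others of the pathway lists were not analysed here. Some genes under this rule are not reported here. Alternatives were other scalings, filters and pseudocounts, a replicate block, covariates for Xist and muscle, library weights and leaving out each library. For the differences between effects, leaving out libraries and the covariates were chosen after seeing the data. The main fits did not pair samples by replicate number: in no table were all correlations of same-numbered deviations above 0.1. In the adult temperature comparison, though, they were -0.26, 0.77, 0.50 and 0.51 for samples 1 to 4. Samples 3 and 4 had high Xist at both temperatures there, so number and sex go together. The main fit took no account of this. Plots were made in Python 3.11.15 (matplotlib 3.10.9).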

Additional observations from a re-analysis of the deposited data

Results flagged for a closer look

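In 10 of 99 groups of a gene, 1 library stood far from the others of its group by Dixon's test. Chance does this in about 1 in 20 groups of normally distributed values. A group with 1 library above 0 and the rest at 0 is always flagged, as Fgf21 was at 22 C at P28 and at 9 weeks. The 10 of 99 can therefore not be read against that rate. Ddit3 was lowest in P28 sample 3 at 30 C, at 80.0, where the others lay between 95.3 and 97.6. Slc7a11 was highest in P25 Prx1-cre sample M2 at 40.5, above the next at 29.1. Klb was highest in P25 Prx1-cre sample F4 at 2303, above the next at 1602. Slc3a2 was highest in 9-week Bcl6-flox sample 3 at 7958, above the next at 5450.3, and this is the sample that overlaps the Prx1-cre group. Trib3 was highest in adult sample 4 at 22 C at 80.6, above the next at 65.0, and Asns lowest in adult sample 3 at 22 C at 633, below the next at 828. Fgf21 was highest in 4 groups: 9-week Bcl6-flox sample 1 at 179 against 43.0 for the next, P25 Bcl6-flox sample M4 at 6.00 against 1.52, P28 sample 4 at 22 C at 0.893 against 0, and adult sample 1 at 22 C at 2.00 against 0. The last 3 rest on an estimated 1 to 6 reads.

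The effects of cooling differed between 9 weeks and P28 for Slc3a2, by 1.67 ± 0.21 log2 units (SE, adjusted p = 0.000524), and for Klb, by 1.52 ± 0.29 (adjusted p = 0.0152). Slc3a2 was higher in all 4 cold adult samples than in all 4 at 22 C, and lower in all 4 P28 samples at 22 C than in all 4 at 30 C.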

How the results depend on the processing

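Of the 41 fold changes of the listed genes, 6 passed; 0 of the 6 changed sign, and 0 kept the call under every alternative. Of the 35 others, 5 passed under at least 1 alternative and 11 changed sign, none of these past the threshold. Of 71 other named calls, 26 held under every alternative. Depth limits Fgf21, at an estimated 0 to 6 reads in P28 and P25 samples.

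With library weights, 1 gene of the list passed at P28 between temperatures, 2 at P25 and 4 in the adult cold. With the muscle covariate 0 passed with TrkA-flox Th-cre and 0 at P25, 1 Bcl6 effect differed between ages (Psat1, 0.74, adjusted p = 0.0476) and 3 cooling effects differed. With the Xist covariate 4 passed in the adult cold and 2 cooling effects differed. The Xist covariate could not be fitted in the adult Bcl6 table, where all samples were high. With no filter on low values 0 passed at P25 and 1 in the adult Bcl6 comparison. A normal reference in place of t gave 2 differing cooling effects. Without centring 0 correlated pairs passed. The cause of these changes was not tested.

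Leaving out 1 library gave 0 to 1 genes of the list with TrkA-flox Th-cre, 0 to 1 at P25, 0 to 3 in the adult Bcl6 comparison, 0 to 2 in the adult cold, and 1 to 2 differing cooling effects.

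In the fit with a replicate block, 0 genes passed at P28 between temperatures, 1 with TrkA-flox Th-cre, 1 in the adult Bcl6 comparison (Slc3a2 lost, adjusted p = 0.0631) and 3 in the adult cold (Phgdh added, adjusted p = 0.0382). Over all genes it called 236 against 547 at P28, 1171 against 1953 in the adult Bcl6 comparison and 1666 against 542 in the adult cold. No paired analysis was possible because the P25 columns carry no replicate number of the labels; this holds for P25 only.

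Over all genes, the muscle covariate called 64 at P28 between temperatures, 3 with TrkA-flox Th-cre (317 without it), 2957 in the adult Bcl6 comparison and 1908 in the adult cold. Library weights called 905, 957, 4777 and 1872 in these comparisons. In the adult cold the Xist covariate called 2226 and no filter 356.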
